A study of Mus musculus with 8 samples.

Results

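The enzymes that carry glucose to lactate were followed through the transcriptome of S0 cells, the lineage-negative fetal liver cells that carry neither CD71 nor Ter119 and from which the erythroid line arises. The 10 genes were taken by name, in pathway order from hexokinase to lactate dehydrogenase: Hk2, Gpi1, Pfkl, Aldoa, Tpi1, Pgk1, Pgam1, Eno1, Pkm and Ldha. They are 10 of the 52636 gene identifiers in the counts, and all 10 are among the 17378 genes that had enough reads to be tested. S0 cells were sorted from E12.5 livers of wild-type (WT) embryos and of Vps13a/Vps13c double knockout (DKO) embryos, with 4 RNAseq libraries of each. Both groups are C57BL/6J. DKO embryos lack both lipid transfer proteins in every tissue, Vps13a through a constitutive deletion made with a ubiquitous Cre and Vps13c through an archived knockout line. The parents of the DKO embryos were themselves null for Vps13c, so WT embryos cannot be littermates of DKO embryos, and cross and genotype cannot be told apart. The labels do not say that each library is a single embryo, so the p-values measure the spread between these samples, which may be in part technical.

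Glycolysis splits glucose into pyruvate in the cytosol. The first enzymes, from hexokinase to triose phosphate isomerase, spend ATP to make triose phosphates, and the later ones, from glyceraldehyde phosphate dehydrogenase to pyruvate kinase, recover ATP and NADH before lactate dehydrogenase restores NAD+. Most steps have several isozymes made from separate genes in different tissues, and mature red cells, which have no mitochondria, depend on this pathway for their ATP. Many of its genes are textbook targets of the hypoxia inducible factors.

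The libraries held 42114489 to 50886469 counts in WT and 36981439 to 42587815 in DKO. Vps13a fell from 1943 ± 130 normalized counts (SD, n = 4) in WT to 794 ± 194 in DKO, whereas Vps13c had 583 ± 74.9 in WT and 816 ± 279 in DKO (edgeR quasi-likelihood adjusted p = 0.182). The deposited counts are per gene and not per exon, so they do not check whether the deleted stretch of Vps13c is missing. A normalized count here is a count divided by the library's effective size and multiplied by the mean effective size, and it rests on TMM scaling, so a fold change is relative to the other genes and is not an amount per cell. In bulk samples, fewer cells of a type and less RNA per cell cannot be told apart. Erythroid markers were present in both groups, with Klf1 averaging 12310 normalized counts per WT library and 12790 per DKO library, and 2 of 12 erythroid markers rose (1 of 12 without DKO replicate 4) while 0 fell, beside 10.7% higher and 10.8% lower among all genes tested.

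The libraries were not alike in other respects that move with genotype. Of the progenitor markers 6 of 10 fell, of the mesenchyme markers 7 of 8 rose, of the muscle markers 4 of 8 rose, and of the neutrophil markers 3 of 7 fell. Without DKO replicate 4 these counts were 5, 7, 4 and 2. Summed normalized counts of the mesenchyme list were 2041 to 5769 in WT and 12996 to 45108 in DKO. Of the 10 hepatoblast markers 0 were called, but their sum was 703920 to 954710 in WT and 209400 to 808340 in DKO, lowest in DKO replicate 3. The macrophage, megakaryocyte and endothelial lists, each of 8 tested genes, had 1 gene lower and 0 higher, near the background. The macrophage sum was nevertheless 4864 to 7355 in WT and 1369 to 4383 in DKO, without overlap. The megakaryocyte sum was 60850 to 70177 in WT and 43363 to 124880 in DKO. The endothelial sum was 12783 to 13330 and 8647 to 14763, with a negative log2 fold change for 7 of the 8 genes. Xist, which is made from the inactive X chromosome, stood at 27043, 18029 and 21393 normalized counts in DKO replicates 1, 2 and 4 and at 62.3 in DKO replicate 3, against 0 to 30.1 in WT. Ddx3y, a gene of the Y chromosome, stood at 2911 to 3354 normalized counts across WT libraries, at 2516 in DKO replicate 3 and at 9.40 to 41.0 in the other DKO libraries. DKO replicate 3 was thus the DKO library that resembled WT in both. The labels give no sex. By these genes the WT libraries and DKO replicate 3 read as male and the other DKO libraries as female. Sex is therefore largely confounded with genotype here, and its part in the differences was not tested. DKO replicate 4 stood apart for the enzymes described here, and the value without it is given beside each call that was lost when it was left out.

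Most of the glycolytic trunk showed no call between genotypes. Of the 10 enzymes, 2 rose in DKO (Hk2 and Tpi1) and 0 fell at an edgeR quasi-likelihood adjusted p under 0.05, and the other 8 were not called. Among all 17378 genes tested 21.6% were called, so 2 of 10 is near the background. In 1 of the 10 (Tpi1) the groups did not overlap, beside 28.1% of all genes. No enzyme reached a log2 fold change beyond 1, a bound that 8.63% of all genes passed together with the p threshold. The median log2 fold change of the 10 was 0.13, beside 0.03 over all genes. The fitted direction was positive for 7 and negative for 3 (Pfkl, Pgam1 and Pkm), but under upper-quartile scaling, which moves the median of all genes from 0.03 to 0.14, it was negative for 0 of 10. Without DKO replicate 4 the median of the enzymes was -0.03, 1 of 10 rose (Hk2), 0 fell, and 16.7% of all genes were called. That library was the highest for each enzyme, so leaving it out lowers all their fold changes.

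**Figure D1:**
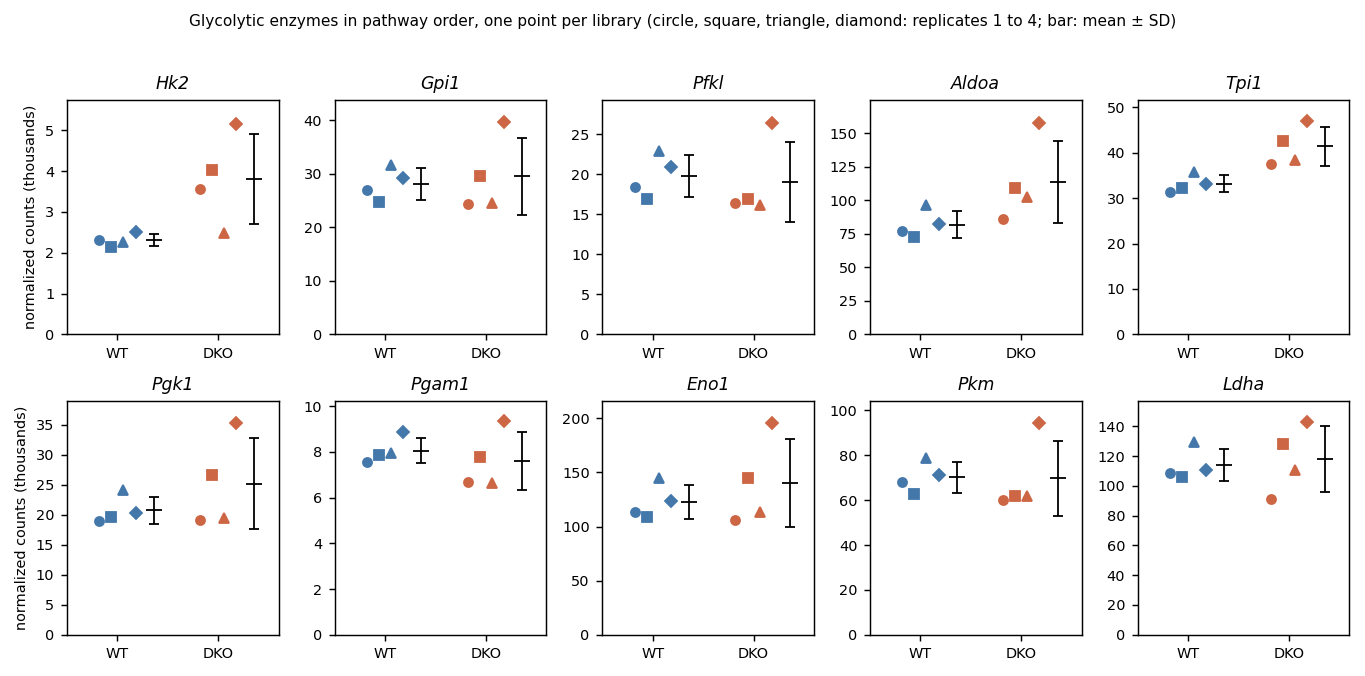
Normalized counts, divided by 1000 and on a linear axis from 0, of the 10 glycolytic enzymes in pathway order. Each point is a library (blue WT, orange DKO; circle, square, triangle and diamond for replicates 1 to 4) and each bar is the mean ± SD of 4 libraries. The diamond of DKO replicate 4 is the highest point in all 10 panels, and only in the Tpi1 panel does every DKO point lie above every WT point.

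Hk2 encodes the inducible hexokinase that traps glucose as glucose 6-phosphate at the head of the pathway. WT replicates 1 to 4 had 2307, 2146, 2265 and 2496 normalized counts, and the DKO replicates in the same order had 3563, 4035, 2474 and 5161. DKO replicate 3 lay within the WT range, below WT replicate 4, and the other 3 DKO libraries were above it. DKO replicate 3 is also the DKO library with Xist and Ddx3y near their WT levels and with the lowest hepatoblast sum. The part of these differences in the Hk2 values was not tested. Hk2 rose 1.65-fold in DKO (95% interval 1.23 to 2.21, log2 fold change 0.73 ± 0.19 SE, edgeR adjusted p = 0.0246). Permuting the libraries, an exact two-sided test, gave p = 0.0571, and 4 libraries against 4 cannot go below 0.0286. Without DKO replicate 4 the log2 fold change was 0.55 (edgeR adjusted p = 0.0476). Of the 8 fits that left out a library, 3 kept the call, and it was lost without any single WT library and without DKO replicate 2, with adjusted p up to 0.0716.

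The gene lies on chromosome 6 (GRCm38, 82725025 to 82774454, minus strand). The 250 bases ahead of its RefSeq start are shown because Hk2 is the member with the largest difference and because this window holds the core that hypoxia inducible factors recognise, beside the windows of Pgk1, an enzyme that holds the same core and was not called, and of Hk1, the most abundant of the hexokinases that fell. Capitals mark each ACGTG on either strand, written CACGT where it lies on the other strand. Each window is given 5′ to 3′ on the strand of its gene, from RefSeq (GRCm38.p6), and none of the 3 overlaps an annotated exon.
Hk2 chr6:82774455-82774704 (minus strand): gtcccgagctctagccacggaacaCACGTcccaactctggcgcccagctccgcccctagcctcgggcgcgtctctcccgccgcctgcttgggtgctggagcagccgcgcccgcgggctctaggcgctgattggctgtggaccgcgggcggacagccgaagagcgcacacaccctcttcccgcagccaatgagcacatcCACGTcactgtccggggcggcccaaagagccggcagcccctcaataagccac
Pgk1 chrX:106186850-106187099 (plus strand): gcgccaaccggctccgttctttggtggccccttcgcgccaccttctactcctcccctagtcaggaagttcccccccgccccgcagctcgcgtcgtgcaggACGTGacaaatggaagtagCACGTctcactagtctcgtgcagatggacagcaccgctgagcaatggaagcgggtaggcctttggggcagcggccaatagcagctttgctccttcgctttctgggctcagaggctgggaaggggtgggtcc
Hk1 chr10:62379909-62380158 (minus strand): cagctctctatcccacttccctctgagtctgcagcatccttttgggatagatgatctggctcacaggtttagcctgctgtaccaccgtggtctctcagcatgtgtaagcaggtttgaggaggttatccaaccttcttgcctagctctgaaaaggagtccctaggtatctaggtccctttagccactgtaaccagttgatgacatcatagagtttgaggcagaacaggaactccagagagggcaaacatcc
The Hk2 and Pgk1 windows each hold 2 matches and this Hk1 window holds 0. A further Hk1 window (chr10:62340422-62340671) overlaps an exon and is not shown. It holds 0 matches of ACGTG and 3 of GCGTG, the other form of the same core, so the printed Hk1 window does not stand for both. RefSeq gives 16 such windows for the 10 enzymes, some of which overlap one another, and 7 of them (43.8%) hold ACGTG on either strand, beside 16.6% of all 32851 windows of the same length. GCGTG was in 6 of the 16 (37.5%) beside 28.2% of all windows. By gene, 6 of 10 enzymes had an ACGTG in at least 1 window, Ldha with 5 in its first, while Tpi1, which rose, had neither motif in its window. No share by gene over all genes is given here to set beside that count. A match is a description of these letters and not a bound site.

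Gpi1, the isomerase that turns glucose 6-phosphate into fructose 6-phosphate, had 24769 to 31619 normalized counts across WT libraries and 24263 to 39633 in DKO. Its groups overlapped, the fold was 1.05 (95% interval 0.821 to 1.34) and the edgeR adjusted p was 0.795. Pfkl, the liver-type phosphofructokinase of the committed step, stood at 18453, 16955, 22955 and 20909 normalized counts in WT replicates 1 to 4 and at 16393, 16877, 16216 and 26470 in DKO replicates 1 to 4. DKO replicates 1 to 3 were all below the lowest WT library, and DKO replicate 4 was above the highest. The fitted fold was 0.958 (0.736 to 1.25, edgeR adjusted p = 0.831). Its log2 fold change without DKO replicate 4 was -0.26 (edgeR adjusted p = 0.138).

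Aldoa, the aldolase that cleaves fructose 1,6-bisphosphate, stood at 76774, 72229, 96069 and 82189 normalized counts in WT replicates 1 to 4. In DKO it stood at 85646, 108940, 102240 and 157230. Only DKO replicate 1 lay within the WT range. The fold was 1.39 (95% interval 1.06 to 1.82), but the edgeR adjusted p was 0.0832 and Aldoa was not called, and the exact two-sided permutation p was 0.0571. Without DKO replicate 4 the log2 fold change went from 0.47 to 0.28. The call appeared with DESeq2 (adjusted p = 0.0277), under upper-quartile scaling (adjusted p = 0.0420) and without DKO replicate 1 (edgeR adjusted p = 0.0248).

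Tpi1, the isomerase that interconverts the 2 triose phosphates, was the enzyme whose groups did not overlap. It had 31445, 32152, 35771 and 33199 normalized counts in WT replicates 1 to 4, while DKO replicates 1 to 4 had 37587, 42619, 38408 and 46944. Among all genes tested, 13.5% had every DKO library above every WT library. Tpi1 rose 1.25-fold (95% interval 1.09 to 1.44, log2 fold change 0.32 ± 0.09 SE, edgeR adjusted p = 0.0324, exact permutation p = 0.0286, two-sided). Leaving out DKO replicate 4 gave a log2 fold change of 0.26 and an adjusted p of 0.0760, and the call was also lost without WT replicate 1, 2 or 4 or DKO replicate 2, with adjusted p up to 0.110. Tpi1 lies on chromosome 6 (124810586 to 124814296, minus strand) and overlaps Spsb2 on the other strand, whose count was at most 2.05% of that of Tpi1. Whether reads were counted by strand is not stated in the sources used here.

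The enzymes of the second phase, which recover ATP, showed no call. Pgk1, the phosphoglycerate kinase that makes the first ATP, had 18960, 19612, 24044 and 20278 normalized counts in WT replicates 1 to 4, while DKO replicates 1 to 4 had 19172, 26670, 19498 and 35215. DKO replicates 2 and 4 were above the WT range and DKO replicates 1 and 3 within it. The fold was 1.21 (95% interval 0.906 to 1.62, edgeR adjusted p = 0.320), and without DKO replicate 4 the log2 fold change was 0.08. Pgk1 is on the X chromosome, and of the DKO libraries with Xist reads 2 were above and 1 was within the WT range of Pgk1. The part of the X chromosome in these values was not tested.

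Pgam1, the phosphoglycerate mutase, had 7556 to 8868 normalized counts across WT libraries and 6648 to 9333 in DKO (fold 0.943, 95% interval 0.786 to 1.13, edgeR adjusted p = 0.650). Eno1, the enolase that makes phosphoenolpyruvate, had 108470 to 144790 in WT and 106150 to 195480 in DKO (fold 1.14, 0.855 to 1.52, edgeR adjusted p = 0.501). The groups of both genes overlapped.

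Pkm, the pyruvate kinase that makes the last ATP, had 67959, 62580, 78788 and 71300 normalized counts in WT replicates 1 to 4, while DKO replicates 1 to 4 had 60293, 62062, 61966 and 94538. As with Pfkl, DKO replicates 1 to 3 lay below every WT library and DKO replicate 4 above every WT library. The fold was 0.994 (95% interval 0.786 to 1.26, edgeR adjusted p = 0.975), and without DKO replicate 4 the log2 fold change was -0.19 (edgeR adjusted p = 0.199). Ldha, the lactate dehydrogenase subunit that favours lactate, had 106120 to 129630 in WT and 91237 to 142990 in DKO, with a fold of 1.04 (0.841 to 1.28, edgeR adjusted p = 0.813). These intervals still allow differences of 1.26-fold for Pkm and 1.28-fold for Ldha, so a missing call does not show that the groups are alike.

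**Figure D2:**
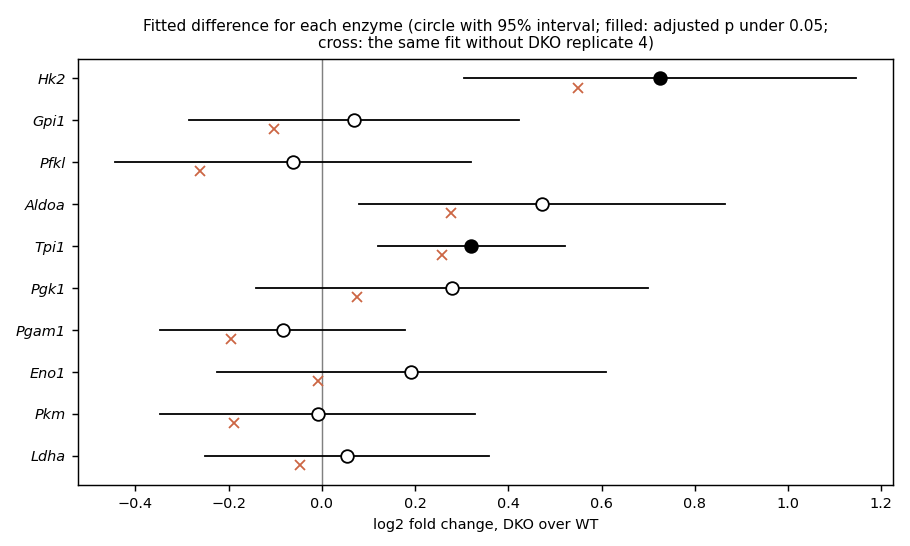
Fitted log2 fold change of DKO over WT for each enzyme, as a circle with its 95% interval (filled where the edgeR adjusted p is under 0.05). An orange cross marks the same fit without DKO replicate 4. The crosses lie to the left of the circles for all 10 enzymes, which follows from leaving out the library that was highest for each. For Gpi1, Eno1 and Ldha they lie on the other side of 0.

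The 10 enzymes all reached their highest level in the same library. DKO replicate 4 was the highest of the 8 libraries for 10 of 10 enzymes, whereas it was the highest for 13.4% of all genes tested. Relative to each gene's own WT mean, the enzymes in DKO replicate 4 were higher by a mean of 0.60 on the log2 CPM scale, and all 10 were above it. DKO replicates 1, 2 and 3 had means of -0.07, 0.20 and -0.05, with 3, 7 and 3 of the 10 enzymes above their WT mean. The sum of the 10 was 452884 to 573894 normalized counts across WT libraries and 450976 to 752998 in DKO, or 1.14 ± 0.11% (SD, n = 4) of all deposited counts in the WT libraries and 1.29 ± 0.28% (SD, n = 4) in the DKO libraries. The mean of that sum was 500590 ± 52990 in WT (n = 4), 567840 ± 133000 in DKO (n = 4) and 506120 ± 60800 in DKO without replicate 4 (n = 3). DKO replicate 4 was not set apart in depth, with 42587815 counts, and its mesenchyme sum of 21475 lay within the range of the other DKO libraries. Its megakaryocyte sum of 124880 was the highest of the 8 libraries, against 60850 to 70177 in WT and 43363 to 98497 in the other DKO libraries, as was its endothelial sum of 14763 (12783 to 13330 in WT). Of that endothelial sum Egfl7 alone held 12906. Cdh5 (93.0) and Stab2 (134) were also highest in DKO replicate 4, whereas Tek (166) and Emcn (0) were lowest in it. The sums of the sugar and lactate transport list (99977) and of the hypoxia inducible factor list (48534) were also the highest there. The part of these differences in the enzyme values was not tested.

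The spread among libraries was also wider in DKO. The SD of log2 CPM was larger in DKO than in WT for 10 of 10 enzymes, beside 76.0% of all genes, and without DKO replicate 4 for 8 of 10 enzymes beside 72.3% of all genes. Its median over the enzymes was 0.15 in WT and 0.34 in DKO, and over all genes 0.21 and 0.35. The median of the enzymes was thus below that of all genes among WT libraries and close to it among DKO libraries. All genes tested include many with few counts, and no set of genes matched for level was compared.

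**Figure D3:**
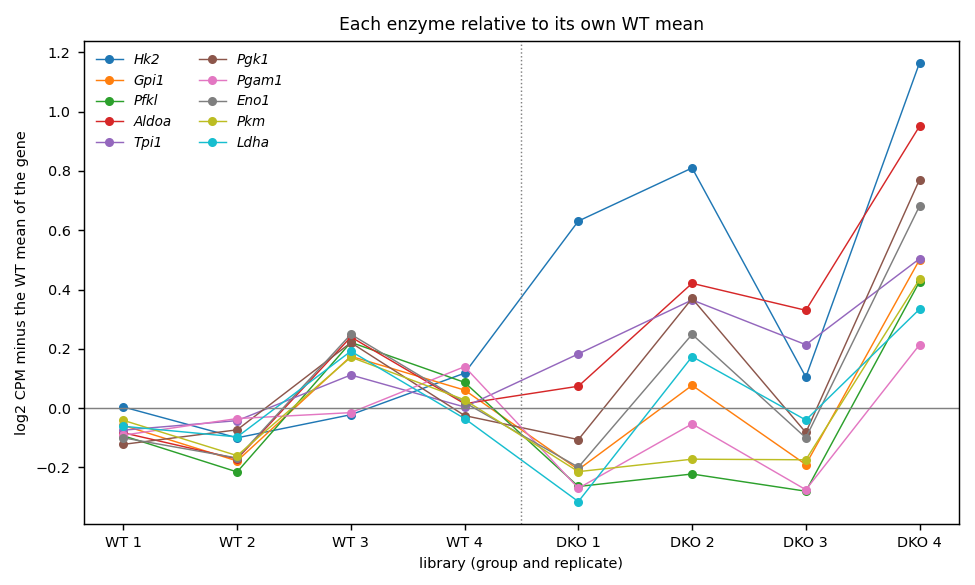
Difference of each enzyme from its own WT mean, in log2 CPM, across the 8 libraries (a line joins the points of a gene and implies no order of replicates). In DKO replicate 4 all 10 lie above 0, between 0.21 for Pgam1 and 1.17 for Hk2, and in DKO replicate 3 Hk2 lies at 0.11, near its WT values.

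Among 6887 protein-coding genes outside the lists with a mean of at least 1000 normalized counts, the profiles nearest to the mean centred profile of the 10 enzymes over the 8 libraries were those of Mcu, Cope, Cyb5a, Mvp and Alkbh5. Their root-mean-square differences were 0.08, 0.09, 0.09, 0.09 and 0.10 on the log2 scale. Mcu, which encodes the pore of the mitochondrial calcium uniporter, had 1124 to 1274 normalized counts across WT libraries and 1299, 1308, 1184 and 1888 in DKO replicates 1 to 4. The choice of nearest profiles fixes that these genes peak in DKO replicate 4 as the enzymes do. Between genotypes 0 of the 5 were called, beside 21.6% of all genes. The choice of a profile whose groups overlap makes a call unlikely, so this count says little about the 5. Within the 10, Gpi1 (0.07) and Eno1 (0.07) were nearest to the mean profile and Hk2 (0.30) was farthest from it.

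Levels of different genes can be compared only per length of transcript. In WT, per kb of transcript, Ldha had 64460 ± 6061 normalized counts, Eno1 60490 ± 7917, Aldoa 54150 ± 6842, Pkm 28850 ± 2789, Tpi1 20620 ± 1179, Pgk1 11360 ± 1248, Gpi1 9754 ± 1023, Pfkl 5313 ± 711, Pgam1 4541 ± 319 and Hk2 418 ± 26.3 (SD, n = 4). Each was above the next in 4 of 4 WT libraries, although the SD ranges of Ldha, Eno1 and Aldoa overlapped, as did those of Pgk1 and Gpi1 and those of Pfkl and Pgam1. Hk2 was the lowest by far in both groups. In DKO Aldoa led with 75120 ± 20350, then Eno1 with 69080 ± 20020 and Ldha with 66910 ± 12660. The SD ranges of these neighbours overlapped. Aldoa was above Eno1 in 4 of 4 DKO libraries, and Eno1 above Ldha in 2 of 4. Below them the order of the means was that of WT, but Pkm (28670 ± 6813) was above Tpi1 (25760 ± 2681) in 3 of 4 DKO libraries and their SD ranges overlapped.

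The mix of isozymes differed between genotypes at several steps, and the difference in share was widest at hexokinase. Hk1, the constitutive hexokinase bound to mitochondria, stood at 13149, 11990, 12723 and 11839 normalized counts in WT replicates 1 to 4 and at 6624, 8133, 10235 and 8743 in DKO replicates 1 to 4. All 4 DKO values lay under the lowest WT value, as for 14.6% of all genes tested. Hk1 fell to 0.679 times its WT level (95% interval 0.562 to 0.820, edgeR adjusted p = 0.0131), and the call held in 8 of 8 fits that left out a library. It lies on chromosome 10 (62268855 to 62379908, minus strand), where the antisense gene Hk1os overlaps it with at most 2.65% of its count. Its neighbour Hkdc1 (62383137 to 62422491), a hexokinase domain protein, fell from 704 ± 180 to 307 ± 64.5 normalized counts (0.436 times, edgeR adjusted p = 0.00823). Hk3, the hexokinase of myeloid cells, stood at 123 to 261 normalized counts across WT libraries and at 0, 9.30, 0 and 19.9 in DKO replicates 1 to 4 (edgeR adjusted p = 0.0134).

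Set side by side per kb of transcript, Hk2 made up 10.32, 10.41, 10.46 and 11.66% of the summed level of Hk1, Hk2, Hk3 and Hkdc1 in WT replicates 1 to 4, and 26.3, 24.7, 14.1 and 28.5% in DKO replicates 1 to 4. The groups did not overlap, and DKO replicate 3 was nearest to WT. The share went from 10.7 ± 0.64% to 23.4 ± 6.39% (exact two-sided permutation p = 0.0286, 0.0476 after Benjamini-Hochberg adjustment over 5 steps). With DKO replicate 4 left out the means differed by 11.01 percentage points. The ratio of Hk2 to Hk1 per length was 0.123 to 0.147 across WT libraries and 0.376, 0.347, 0.169 and 0.412 in DKO replicates 1 to 4. Hk1 stayed the larger of the pair in all 8 libraries.

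**Figure D4:**
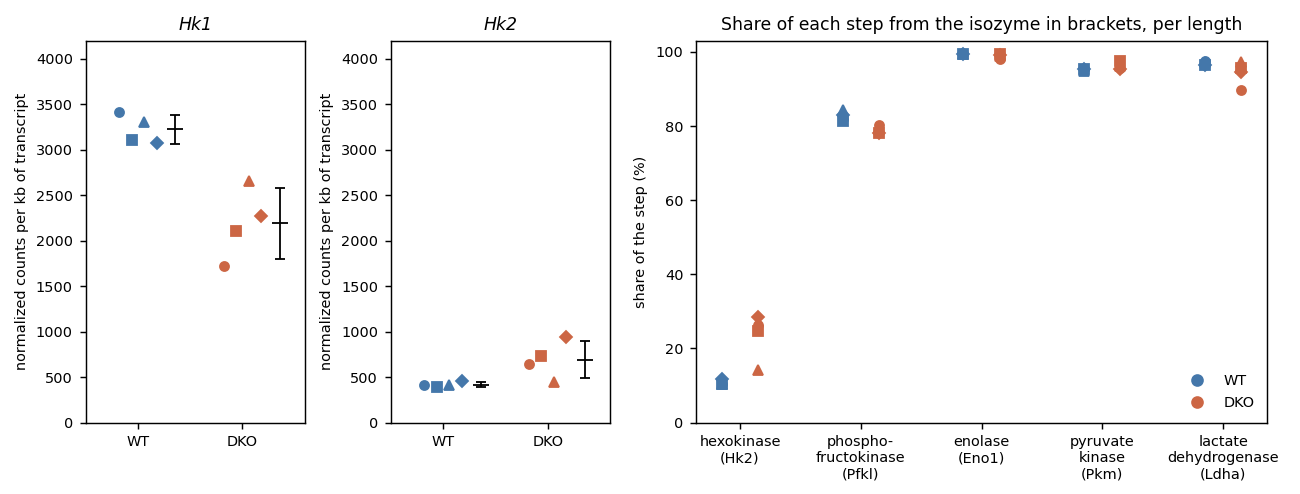
Left and middle, normalized counts per kb of transcript of Hk1 and Hk2 by library on axes of the same scale, with mean ± SD of 4 libraries. Right, the share of each step's summed isozyme level that comes from the enzyme in brackets, in percent, with WT blue and DKO orange and replicates by symbol. Hk1 is lower and Hk2 mostly higher in DKO, and the Hk2 share goes from 10.7% to 23.4% on average while the other 4 shares stay above 78%.

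At the other steps shown here the member carried most of the level in both groups. Pfkl made up 82.7 ± 1.38% of phosphofructokinase in WT and 79.0 ± 1.05% in DKO (exact permutation p = 0.0286, 0.0476 adjusted over 5 steps), while Pfkp, the platelet type and the next isozyme, was not called (2155 ± 151 and 3210 ± 1514, edgeR adjusted p = 0.154). Eno1 made up 99.4 ± 0.05% and 98.9 ± 0.53% of enolase, again with non-overlapping groups and the same exact p, and Eno3, the enolase of muscle, rose from 536 ± 101 to 1130 ± 405 (2.11-fold, edgeR adjusted p = 0.0195). Pgam2, the mutase of muscle, rose from a low level (23.7 ± 14.4 to 104 ± 53.9, edgeR adjusted p = 0.0337), and its call was lost without DKO replicate 4 (adjusted p = 0.0682).

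For pyruvate kinase and lactate dehydrogenase the shares were not told apart. Pkm made up 95.3 ± 0.24% in WT and 96.2 ± 0.97% in DKO (exact permutation p = 0.0857, 0.107 adjusted over 5 steps), and Pklr, the pyruvate kinase of liver and red cells, had 4188 ± 619 and 3398 ± 1552 normalized counts (edgeR adjusted p = 0.473). Ldha made up 96.9 ± 0.50% and 94.3 ± 3.21% (exact permutation p = 0.114, also 0.114 adjusted). Ldhb, the heart-type subunit, had 2067 to 2984 normalized counts across WT libraries and 7563, 4210, 2264 and 6118 in DKO replicates 1 to 4. Only DKO replicate 3 was within the WT range (edgeR adjusted p = 0.0573). That library had Xist and Ddx3y near WT levels, but also the lowest hepatoblast sum (209400) and the highest erythroid marker sum (83554, beside 59825 to 65913 in WT). The part of these differences in the Ldhb values was not tested. Gapdh, the dehydrogenase of the step between Tpi1 and Pgk1, had 45290 ± 3634 and 54770 ± 8348 (fold 1.21, 95% interval 1.01 to 1.45, edgeR adjusted p = 0.118).

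Over the 14 other isozymes reported here, 2 rose and 3 fell (35.7% called, beside 21.6% of all genes), and the median log2 fold change was 0.15. The counts were also 2 and 3 without DKO replicate 4, where Eno2, the enolase of neurons, took the place of Pgam2 (edgeR adjusted p = 0.0442). Markers of tissues that are known for some of these isozymes also differed between these libraries. The muscle markers summed to 1548 to 2231 normalized counts across WT libraries and 2595 to 6588 in DKO, and the neutrophil markers to 101610 to 132300 in WT and 5311 to 44809 in DKO. Most of the muscle sum in WT came from Tnnt1 (1328 ± 89.3), while Acta1 averaged 5.72 and Myod1 51.8 there. The part of either list in the isozyme differences was not tested.

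Around the trunk, more genes were called lower than higher. Over 7 lists of isozymes, transporters and neighbouring pathways, 8 of 83 genes rose (9.64%) and 17 fell (20.5%), beside 10.7% higher and 10.8% lower among all genes. The counts were 7 and 13 without DKO replicate 4. Of the 25 genes called, 11 were called in each of the 8 fits that left out a library (Hk1, Hk3, Hkdc1, Minpp1, Trib3, Pdp2, G6pdx, Pgd, Pck2, Pygb and Vegfa). The calls lost were 12, 12, 7 and 12 without WT replicates 1 to 4 and 3, 3, 2 and 8 without DKO replicates 1 to 4. Under upper-quartile scaling 13 list genes rose and 11 fell, and among all genes that scaling moved the share of calls that were higher from 49.9% to 66.7%.

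In the pentose phosphate pathway, which branches off at glucose 6-phosphate and makes NADPH and ribose, 4 of 9 genes fell and 0 rose (median log2 fold change -0.34). G6pdx, its first and rate-limiting dehydrogenase, stood at 3714, 3628, 3499 and 3995 normalized counts in WT replicates 1 to 4 and at 2210, 2849, 2995 and 2630 in DKO replicates 1 to 4. Every DKO library lay below every WT library, and the level fell to 0.720 times that of WT (edgeR adjusted p = 0.0133). Pgd, the dehydrogenase that makes the second NADPH, fell to 0.696 times (8167 ± 223 to 5685 ± 771, edgeR adjusted p = 0.00854). H6pd, the matching dehydrogenase of the endoplasmic reticulum, fell to 0.718 times, and Rpe, an epimerase of the non-oxidative arm, to 0.740 times (edgeR adjusted p = 0.0288 and 0.0154). The list kept 3 calls without DKO replicate 4, with H6pd at an adjusted p of 0.0592. G6pdx is on the X chromosome.

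Where pyruvate enters mitochondria, 3 of 14 genes fell and 0 rose (21.4%, median -0.26). Pdha1 encodes the catalytic subunit of pyruvate dehydrogenase, Dlat its acetyltransferase and Pdp2 a phosphatase that activates the complex. They fell to 0.683, 0.749 and 0.682 times the WT level (edgeR adjusted p = 0.0168, 0.0275 and 0.00974). Dlat was not called once DKO replicate 4 was left out (edgeR adjusted p = 0.0632). Pdha1 is also on the X chromosome.

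Of 9 genes that transport sugar and lactate, 1 fell and 0 rose. Slc2a2, the glucose transporter of liver, fell from 1232 ± 239 to 549 ± 222 normalized counts (0.446 times, edgeR adjusted p = 0.0299), and was lowest in DKO replicate 3, the library with the lowest hepatoblast sum. It was not called once DKO replicate 4 was left out (edgeR adjusted p = 0.0539). Slc2a1, a glucose transporter of most cells, and Slc16a3, the lactate exporter, are named here after their values were seen. Slc2a1 had 6181 ± 566 and 7173 ± 3077 normalized counts (edgeR adjusted p = 0.582) and Slc16a3 9192 ± 1822 and 14730 ± 5288 (edgeR adjusted p = 0.0651), both highest in DKO replicate 4. Slc2a1 went from a log2 fold change of 0.21 to -0.10 when DKO replicate 4 was left out.

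Among 10 genes listed as regulators of the pathway, a list chosen with earlier results known, 1 rose (Trib3) and 1 fell (Minpp1). The other 8, with the kinases and phosphatases of the Pfkfb family among them, were not called. Trib3, a pseudokinase that restrains insulin signalling and is induced under amino acid and endoplasmic reticulum stress, stood at 133 to 169 normalized counts across WT libraries and at 2305, 4093, 2115 and 9658 in DKO replicates 1 to 4. It was far above WT in every DKO library and rose 31.0-fold (log2 fold change 4.95 ± 0.51 SE, edgeR adjusted p = 0.000962), or 4.28 on the log2 scale without DKO replicate 4. Minpp1, a phosphatase that can turn 2,3-bisphosphoglycerate into a glycolytic intermediate, fell to 0.753 times the WT level (5912 ± 444 to 4450 ± 193, edgeR adjusted p = 0.00854).

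In gluconeogenesis and glycogen turnover 2 of 12 genes rose and 3 fell. Pck2, the mitochondrial phosphoenolpyruvate carboxykinase, had 2282, 2210, 2489 and 2446 normalized counts in WT replicates 1 to 4, while DKO replicates 1 to 4 had 5219, 7624, 5893 and 8217, a rise of 2.86-fold (2.29 to 3.57, edgeR adjusted p = 0.000575). Gys1, the glycogen synthase of tissues other than liver, rose 1.74-fold (edgeR adjusted p = 0.0309), with overlapping groups and no call without DKO replicate 4 (adjusted p = 0.0551). Pygb, a glycogen phosphorylase, fell to 0.603 times (edgeR adjusted p = 0.00452). Pgm2, a phosphoglucomutase, fell to 0.777 times, and Ugp2, which makes UDP-glucose, to 0.822 times (edgeR adjusted p = 0.0267 and 0.0423). The counts without DKO replicate 4 were 1 higher and 4 lower, and Ugp2 was called in 1 of the 8 fits that left out a library (edgeR adjusted p = 0.0736 without DKO replicate 4).

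The hypoxia inducible factor list holds the factors, the enzymes that control them and genes they are known to induce. It moved in both directions, with 3 of 15 genes higher and 2 lower (33.3%, median 0.06). Hif1a, the oxygen-labile subunit, fell to 0.722 times its WT level (4229 ± 376 to 3053 ± 487 normalized counts, edgeR adjusted p = 0.0254) and was not called without DKO replicate 4 (edgeR adjusted p = 0.0593). It was lowest in DKO replicate 4 (2551), whereas Egln1, Egln3, Bnip3, Ankrd37, Ndrg1 and P4ha1 were highest there, as were 13.4% of all genes tested. The rest of the list peaked elsewhere. Vegfa, Adm, Arnt and Hif1an were highest in DKO replicate 1, Epas1 in DKO replicate 3, and Hif1a, Vhl, Egln2 and Car9 in a WT library. Bnip3, a mitochondrial protein of mitophagy, had 20830 normalized counts in DKO replicate 4 and 4605 to 9900 in the other 7 libraries (edgeR adjusted p = 0.0794). The genes of this list that were not called are named after their values were seen. Vegfa, the vascular growth factor, rose 3.39-fold (160 ± 43.7 to 541 ± 123, edgeR adjusted p = 0.00395). Egln1, the prolyl hydroxylase that marks Hif1a for decay, rose 2.21-fold (edgeR adjusted p = 0.0155). Ankrd37 rose 4.17-fold (edgeR adjusted p = 0.0224), with 433 normalized counts in DKO replicate 3 and 3427 in DKO replicate 4, without which its log2 fold change went from 2.06 to 1.27. Car9, a carbonic anhydrase, fell to 0.626 times (edgeR adjusted p = 0.0496, and 0.0619 without DKO replicate 4). The counts without DKO replicate 4 were 3 higher and 0 lower.

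**Figure D5:**
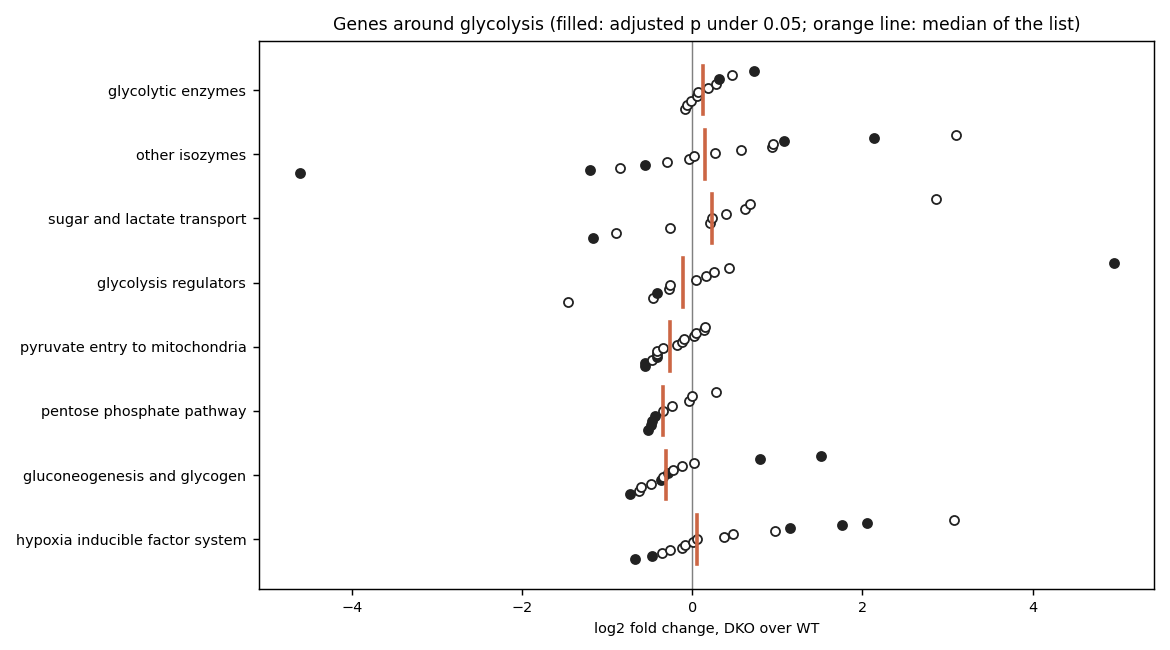
Fitted log2 fold change of DKO over WT for each gene tested in 8 lists, with filled points for an edgeR adjusted p under 0.05 and an orange line at the median of the list. The 10 glycolytic enzymes lie between -0.08 and 0.73, the pentose phosphate and pyruvate entry lists have filled points on the lower side only, and Trib3 is the filled point at 4.95.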

How the data were processed

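Per the labels and the study's methods, S0 cells were sorted from E12.5 fetal livers and their polyadenylated RNA was made into low-input paired-end libraries. The authors trimmed reads with fastp 0.21.0, mapped them to mm10 with HISAT2 2.2.1 and left out poorly mapped alignments. Gene counts came from StringTie 1.3.3b with prepDE, and these whole numbers were deposited by the authors without normalization or pooling. Genes with near-identical copies can lose reads at the mapping filter. The 11 named copies of members held at most 0.744% of a member's count (Eno1b against Eno1), and a second identifier of Aldoa with at most 38 counts was not used. The strand used in counting is not given in the sources used here.

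Of 52636 identifiers, 52489 matched a GENCODE vM21 symbol with the version ignored and 49121 with it. The 8 count columns were matched to samples by name. The analysis used edgeR 4.0.16 (R 4.3.3) with filterByExpr, TMM, robust quasi-likelihood test of DKO against WT without covariates, Benjamini-Hochberg adjustment over all 17378 genes tested, and a call at an adjusted p under 0.05. Each SE is the size of the log2 fold change over the square root of F. Exact permutation tests ran over 70 arrangements of the 8 libraries. Levels per kb used the principal transcript, or the longest where none is marked. The biological coefficient of variation was 0.375. The test was checked on simulated counts.

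The enzymes and all lists were chosen with earlier results of these data known. The genes named are the 10 enzymes, each gene of the glucose metabolism lists that was called, the most abundant other isozyme of each step, and the 5 genes with the profile nearest to the enzymes. Marker genes are named beside their lists. Alternatives were DESeq2 1.42.0, other scalings, filters, a GC content and length offset, a replicate block, and leaving out each library. In the lists, 2 isozymes, and with them the share of 1 step, are not reported here. No 2 libraries agreed within sampling noise.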

Additional observations from a re-analysis of the deposited data

Results flagged for a closer look

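Of 82 groups of 4 libraries examined, 5 held a library whose gap to its nearest neighbour took up more of the group's range than Dixon's 95% critical value allows, and chance gives about 1 in 20. In 2 of them the library was DKO replicate 4, the highest for every glycolytic enzyme. Pfkl stood at 26470 normalized counts there, with a gap of 0.936 of the range, and Pkm at 94540, with a gap of 0.948. The other 3 were in WT replicate 4. H6pd was the lowest there at 1131 normalized counts, Gys1 the highest at 1264, and the Hk2 share of hexokinase the highest at 11.7%.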

How the results depend on the processing

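No called result changed direction under these alternatives. With DESeq2 15 genes of the 7 lists around glycolysis were higher, and with upper-quartile scaling 13, beside 8, and that scaling left 11 lower, beside 17. The enzymes higher in DKO numbered 1 without a filter on low counts and 0 when a log2 fold change beyond 1 was asked for, a bound that left 1499 genes in all. The replicate block gave 2109 genes in all, 1 enzyme higher and 5 list genes higher. With a GC content and length offset added to the block there were 1617 genes in all, 0 enzymes higher and 7 list genes lower. Leaving out each library gave 1756 to 3927 genes in all, 0 to 3 enzymes higher, 4 to 11 list genes higher and 9 to 20 lower. The fewest genes came without WT replicate 1 (1756), WT replicate 4 (1905) and WT replicate 2 (2061), and in each of these fits, as without DKO replicate 2, 0 enzymes were called. Only 1 was called without WT replicate 3 or without DKO replicate 4, and 3 without DKO replicate 1. Each such fit also had fewer samples, and the causes of these changes were not tested. Same-numbered libraries did not deviate together (r of -0.10, 0.05, -0.03 and -0.01 for pairs 1 to 4), so these values show no pairing by number. As correlations of deviations from group means, they cannot tell whether samples shared a sorting day or batch, which was not tested. The exact sign-flip test of 4 pairs cannot go below 0.125. Depth limits the rare isozymes such as Hk3, whereas Hk2, the least abundant enzyme, had at least 2146 normalized counts in each library.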
